A study of Mus musculus with 2 samples.

Results

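Imprinted genes are genes of which only the copy inherited from 1 parent is normally active. The choice is set in the germ line by DNA methylation at imprinting control regions, and it has to be copied at every division of the early embryo. Many imprinted genes lie in clusters in which a long non-coding RNA from 1 parental chromosome accompanies the silence of its neighbours, and as a group they act in fetal growth, the placenta and the brain. Mouse embryonic stem cells (mESCs) are used to study imprints, since culture can erode or alter them. Here 35 imprinted genes, chosen by name, were followed in mESCs after USP21 knockdown. All 35 were found among the 23889 gene symbols of the deposited tables. They belong to 17 loci, and 21 are usually expressed from the paternal allele and 13 from the maternal allele. Gnas, whose locus makes transcripts from either allele, was kept apart.

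The data are 2 RNA-seq libraries of E14 cells, a line that was grown without feeders in serum medium with LIF. In 1 library the cells had been transfected with a control shRNA, with the genotype given as Normal, and in the other with an USP21 shRNA, with the genotype given as USP21 knockdown, and both were harvested after 3 days. The labels do not say which USP21 shRNA was used or whether cells were selected. The measure is FPKM (fragments per kilobase of transcript, scaled to the mapped fragments of the library), 1 value per gene and library. There are no replicates, so no difference below has a replicate check, no test was run, and the ratios describe these 2 libraries and not the conditions. The comparison asks how imprinted genes stood when USP21 was depleted. The values do not separate the parental alleles. More RNA from the active copy, RNA from the normally silent copy, and a change in how many cells express a gene therefore cannot be told apart.

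Usp21, the targeted deubiquitinase, had an FPKM of 26.2 in control cells and of 3.49 in knockdown cells. The FPKM values of the libraries summed to 613617 and 543206. The size of the smallest steps in the low values, about 0.031 and 0.037 FPKM times kilobase per fragment, implies that the control library was 1.18 times as deep. The log2 ratio used below is log2 of (FPKM with USP21 shRNA + 0.1) over (FPKM with control shRNA + 0.1). The added 0.1 makes ratios of low genes too small. A gene was counted as 2-fold higher from a log2 ratio of 1 upwards and as 2-fold lower from -1 downwards. Genes had to reach an FPKM of 1 in either library to be counted, and 11927 genes did so.

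The embryonic stem cell markers were abundant in both libraries. All 8 of 8 were lower after USP21 knockdown, as were 5912 of all 11927 genes past the filter. The 8 markers summed to an FPKM of 4275 in the control library and 3217 in the other, with Dppa5a alone at 1849 and 1285. Their log2 ratios ran from -0.86 to -0.14. These ratios are not rescaled to equal FPKM totals, a step that lifted the median of all genes to 0.18. The 8 fibroblast markers summed to 194.0 and 174.1, most of it Vim (174.1 and 167.0) and Thy1 (17.3 and 5.29), while Col3a1 was near 0 and Lum at 0 in both. Primitive endoderm markers summed to 50.6 and 44.0 (3 of 8 higher), trophoblast markers to 45.5 and 38.5 (5 of 8 higher), and mesoderm markers to 7.68 and 3.60 (4 of 8 higher). The part of these cells in the values below was not tested.

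In the control library the imprinted genes covered a wide range of levels. Gnas, which encodes the stimulatory G protein alpha subunit among other products, stood highest with an FPKM of 179.4. It was followed by Grb10, an adaptor that dampens insulin and growth factor signalling, at 109.7, and by Peg10, a retrotransposon-derived gene needed in the placenta, at 72.0. Rian, Phlda2, Meg3 and Impact lay between 50.5 and 60.6. At the other end, 9 members stayed below an FPKM of 1 in both libraries. After USP21 knockdown Peg10 was the highest member with 212.9, and Gnas came next with 178.7. Meg3 moved from the sixth to the third place among the 35 genes, with an FPKM of 108.9.

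Of the 26 members that passed the filter, 18 had a log2 ratio above 0 and 8 below 0, with a median of 0.45 and a range from -0.97 to 1.56. Among all 11927 genes the median was 0.0031, and 50.4% lay above 0. Peg10, Plagl1 and Nnat were at least 2-fold higher, which is 3 of 26, against 2.3% of all genes that passed the filter. None of the 26 was 2-fold lower, where 2.03% of all genes were. Meg3, Mkrn3 and Cdkn1c lay just inside the limits, at 0.97, 0.97 and -0.97. For Mkrn3 this rests on the added 0.1, since its FPKM was 2.03 times the control value. The 15 paternally expressed members had a median of 0.58, with 12 above 0. The 10 maternally expressed members had a median of 0.094, with 6 above 0. The difference between these groups was not tested, and genes of 1 cluster are not independent of each other. When both libraries were scaled to equal FPKM totals (TPM), this brought the median of all genes to 0.18 and the share of genes 2-fold higher and lower to 3.86% and 1.33%. A total of 6 members were then 2-fold higher, with Peg3, Meg3 and Mkrn3 joining Peg10, Plagl1 and Nnat.

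**Figure D1:**
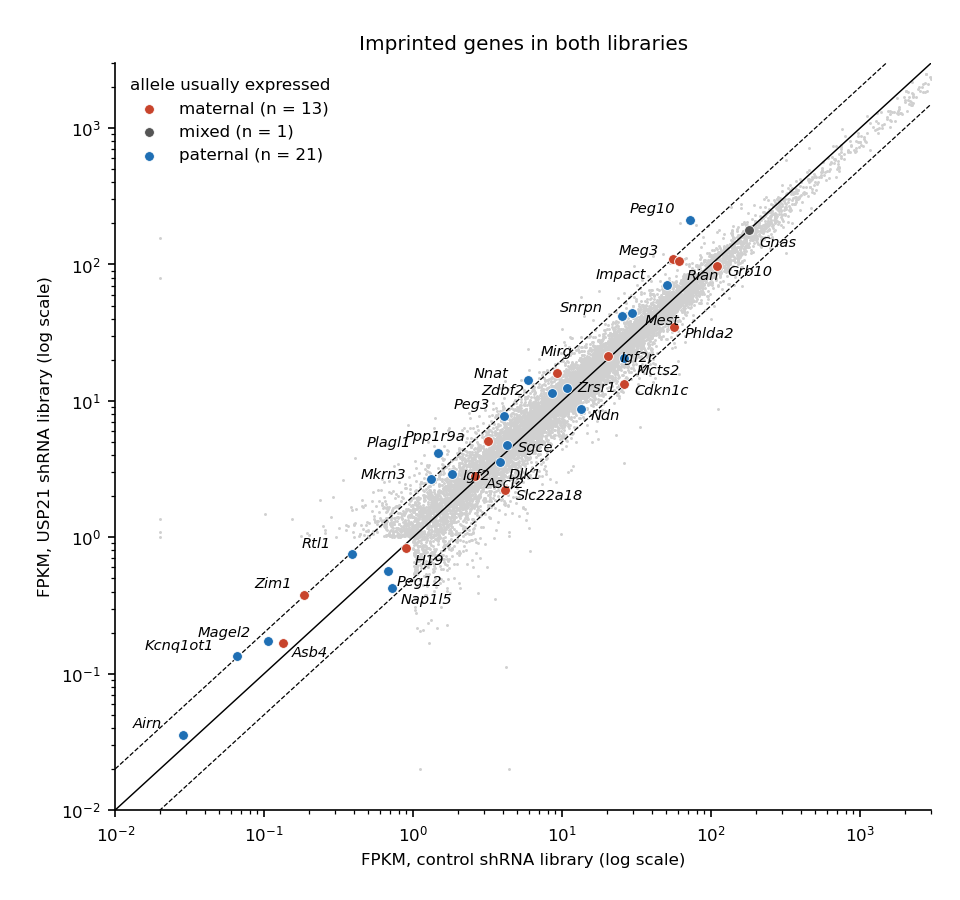
FPKM of the 35 imprinted genes in the control shRNA library (x axis) and the USP21 shRNA library (y axis), both on log scales and coloured by the allele usually expressed. Grey points are the 11927 genes past the filter, drawn at 0.02 where lower, the solid line marks equal values and the dashed lines a 2-fold difference. Peg10, Plagl1 and Nnat lie above the upper dashed line, and Cdkn1c lies close to the lower one. Mkrn3, Zim1 and Kcnq1ot1 lie just above the upper line, at 2.03, 2.04 and 2.06 times, since 0.1 was not added to the values drawn.

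Transcript length moved with these ratios. Over the 11378 genes past the filter with a length (that of the longest transcript in GENCODE M21), the ratio followed transcript length with a Spearman rho of 0.32 across genes, which are not independent replicates. The fifth of genes with the shortest transcripts (median 1383 bases) had a median log2 ratio of -0.16, and the fifth with the longest (median 6729 bases) had 0.18. The trend is drawn through all genes in the plot of ratio against length. At the length of Peg10, 6667 bases, the trend stood at 0.17, far below the 1.56 of this gene. For Zdbf2, with 12629 bases, it stood at 0.33, which is most of its log2 ratio of 0.42. With the trend subtracted, the members' median was 0.32, that of the paternally expressed genes 0.58 and that of the maternally expressed genes 0.029 (5 above 0 and 5 below 0). Peg10, Plagl1 and Nnat were then at 1.39, 1.34 and 1.38, and Mkrn3 at 1.01.

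**Figure D2:**
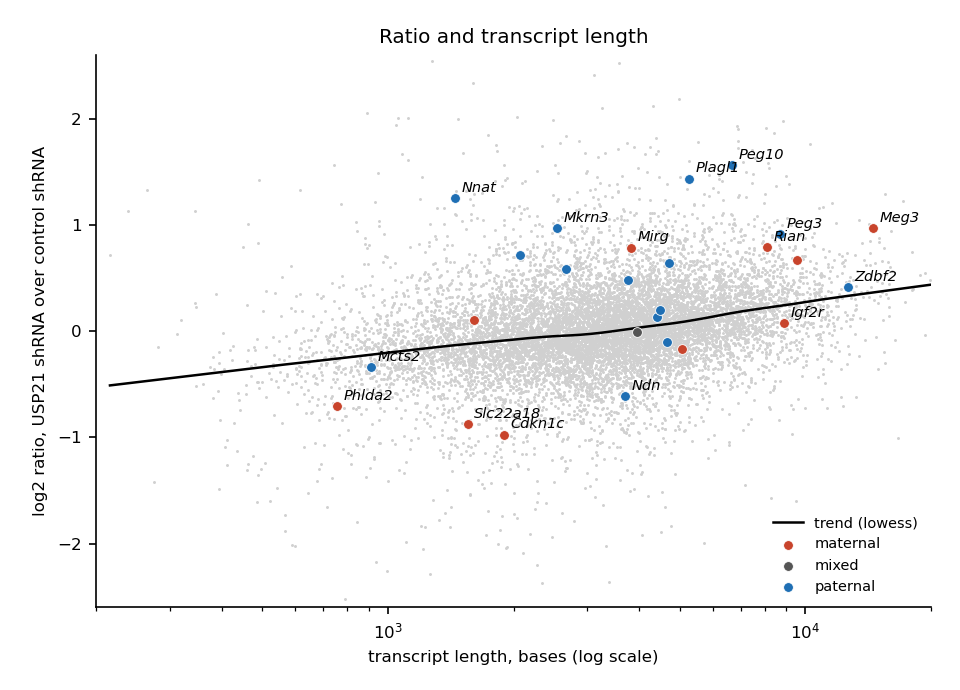
Log2 ratio of USP21 shRNA over control shRNA (y axis) against transcript length in bases (x axis, log scale) for genes past the filter. Grey points are all such genes within the axis limits, the line is the lowess trend, and coloured points are the 26 imprinted genes. Nnat lies 1.38 above the trend at 1448 bases, while Zdbf2 lies 0.084 above it at 12629 bases.

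Peg10 and Sgce start 99 bases apart on chromosome 6 and point away from each other, around an imprinting control region that is unmethylated on the paternal chromosome. Peg10 (GRCm38, 4747306 to 4760517, plus strand) had an FPKM of 72.0 in control cells and of 212.9 in knockdown cells, 2.96 times as much. Sgce, which encodes epsilon-sarcoglycan of the dystrophin complex, had 4.29 and 4.72, a log2 ratio of 0.14. In the control library Peg10 was 16.8 times Sgce and in the other 45.1 times, so these neighbours did not keep their proportion. Further along the chromosome are the maternally expressed Ppp1r9a, which encodes the actin-binding neurabin, and Asb4, a subunit of ubiquitin ligases. Ppp1r9a was at 3.17 and 5.10 (log2 ratio 0.67, of which 0.26 is the trend at its 9547 bases). Asb4 was at 0.135 and 0.168, estimated at about 14 and 15 fragments. Of the genes of this region outside the list, Pon3 was at 1.28 and 2.38 and Casd1 at 5.40 and 7.63, while Pon2 was at 3.69 and 3.80.

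Plagl1 and Nnat were the other members past the 2-fold limit. Plagl1, also called Zac1, is a zinc finger transcription factor that sits high in a network of imprinted growth genes. It was at 1.46 in control cells and 4.13 in knockdown cells, a log2 ratio of 1.44. Of the other genes within 500 kb, 7 passed the filter, 2 above 0 and 5 below 0, with a median log2 ratio of -0.034. They ranged from Adat2, at 16.63 and 11.96 (-0.47), to Utrn, at 5.11 and 7.89 (0.62). Nnat encodes neuronatin, a small membrane protein of the endoplasmic reticulum, and lies in an intron of Blcap. Nnat was at 5.90 and 14.2, a log2 ratio of 1.25, and Blcap at 22.6 and 24.2. Nnat went from 0.261 to 0.586 times Blcap.

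The germline marks of imprinted genes are kept by ZFP57, which binds the letters TGCCGC when their CpG is methylated. The promoter windows of RefSeq (GRCm38.p6, 250 bases before to 50 after the start) were searched for these letters on both strands. Windows were at hand for 29 of the 35 members, not for H19, Cdkn1c, Peg10, Sgce, Rtl1 and Impact. The motif was in a window of 11 of the 29 members (37.9%), against 13.1% of all 27025 genes and 23.2% of the 9000 genes past the FPKM filter that have a window. Counted by window, of which some genes have several, it was in 12 of 45 (26.7%) against 11.6% of 32851. A match is a description of sequence and not of binding. Both 2-fold higher genes with a window carry it, and it is also in those of Mest, Snrpn and Meg3. The lines below show 26 bases around the motif, on the strand of the gene, with the motif in capitals; where it reads GCGGCA it lies on the opposite strand.
Plagl1, chr10:13090732-13090757, plus strand: ggcgtgttgcGCGGCAaagcccacgg
Nnat, chr2:157560095-157560120, plus strand: caccggggctGCGGCAttgcgcccag
Mest, chr6:30737973-30737998, plus strand: gaggggcgctGCGGCAggatgggcgg
Snrpn, chr7:60005186-60005211, minus strand: cccctgcattGCGGCAaaaatgtgcg
Meg3, chr12:109540796-109540821, plus strand: caggggcactGCGGCAgatttttttt
In Plagl1 and Nnat the motif lies 90 bases before and 27 bases after the annotated start. The genes with the motif include Grb10 and Mcts2, whose log2 ratios of -0.17 and -0.34 lay on the other side. Nap1l5, under the filter, also carries it and was at -0.64. Mkrn3, Peg3, Rian and Mirg, at 0.97, 0.92, 0.79 and 0.79, have a window without the motif.

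The Dlk1 and Meg3 locus on chromosome 12 makes a series of long non-coding RNAs from the maternal chromosome, and the activity of these RNAs in mESC lines is widely used as a sign that the locus is properly imprinted. Meg3 (109541001 to 109571726, plus strand) was at 55.6 in control cells and 108.9 in knockdown cells. Rian, a host of small nucleolar RNAs, was at 60.6 and 105.2, and Mirg, a host of microRNAs, at 9.23 and 16.01. On the log2 scale the ratios were 0.97, 0.79 and 0.79, and the RNAs kept their proportions. Rian was 6.57 times Mirg in both libraries, and Meg3 was 0.916 and 1.03 times Rian. The trend at their lengths was 0.37, 0.22 and 0.024, which leaves 0.60, 0.57 and 0.76. The RNAs were thus expressed in both libraries, and none was near 0.

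The paternally expressed genes of the same locus did not move alike. Dlk1, which encodes a transmembrane protein related to Notch ligands, was at 3.82 and 3.55, with a log2 ratio of -0.10 that turned to 0.071 after rescaling to equal sums. Meg3 was therefore 14.6 times Dlk1 in the control library and 30.7 times in the other. Rtl1, a retrotransposon-derived gene that acts in placental vessels, was at 0.389 and 0.748, estimated at about 79 and 129 fragments. Dio3, the thyroid hormone deiodinase at the far end of the domain, was at 0.849 and 0.131, under the filter. Wdr25 and Begain, which lie before Dlk1, were at 3.34 and 4.06 and at 1.45 and 1.47.

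Rtl1 is covered on the opposite strand by a maternal transcript that gives rise to microRNAs with full complementarity to Rtl1. Whether the libraries kept the strand is not stated, so the Rtl1 value may hold fragments of this transcript. Mature sequences of microRNAs inside Rtl1 are shown here with the seed, bases 2 to 8, in capitals (RefSeq, GRCm38.p6, chromosome 12, plus strand, while Rtl1 is on the minus strand), since they are what ties the maternal transcript to Rtl1.
miR-431-5p: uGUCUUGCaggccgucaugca
miR-433-3p: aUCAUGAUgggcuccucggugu
miR-127-3p: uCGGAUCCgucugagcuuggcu
miR-434-3p: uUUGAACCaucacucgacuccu
miR-136-5p: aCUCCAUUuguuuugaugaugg
The seeds all differ. Of 57 hairpins between the start of Meg3 and the end of Mirg, 55 have a row in the tables and all 55 are listed at 0 in both libraries. Of all 1179 rows for microRNAs and small nucleolar RNAs, 1169 (99.2%) are at 0 in both, so these zeros say nothing of the small RNAs themselves. The same holds for Mir675 in H19 and Mir335 in Mest.

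In the cluster on distal chromosome 7, 3 listed genes were lower in knockdown cells, while Ascl2 and Kcnq1ot1 were not. Here the paternally expressed long non-coding RNA Kcnq1ot1 silences its neighbours on the paternal chromosome. Cdkn1c (143458339 to 143461050, minus strand), which encodes the cell cycle inhibitor p57, was at 26.1 in control cells and 13.3 in knockdown cells. Phlda2, a brake on placental growth, was at 56.3 and 34.6, and Slc22a18, a transporter, was at 4.16 and 2.23. Their log2 ratios were -0.97, -0.70 and -0.87, and all 3 remained below 0 under every alternative scaling, pseudocount and the length correction. These transcripts are short, and the trend at their lengths was -0.088, -0.26 and -0.12, which leaves -0.89, -0.45 and -0.75. Cdkn1c shares 28.4% of its 31-base words with the annotated antisense gene Gm44732, and without strand their fragments cannot be told apart.

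Kcnq1ot1 itself was low, at 0.065 and 0.135. Because its transcript has 93092 bases in the annotation, this corresponds to about 194 and 340 fragments. The knockdown value was 2.06 times the control value, and the added 0.1 brought its log2 ratio down to 0.51. The trend, at the far end of the lengths, stood at 0.68. It was fitted on genes past the filter, which Kcnq1ot1 did not reach, so 0.51 cannot be set against it. Kcnq1ot1 runs inside Kcnq1 on the opposite strand, and Kcnq1 was at 0.170 and 0.117. Ascl2, a bHLH factor of the trophoblast which lies on the other side of Kcnq1ot1, was at 2.61 and 2.82, a log2 ratio of 0.11. Other genes between Ascl2 and Phlda2 differed among themselves, since Tssc4 was at 28.5 and 28.9 while Cd81, a tetraspanin, was at 79.7 and 195.6. Nap1l4, next to Phlda2, was at 100.9 and 98.6.

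**Figure D3:**
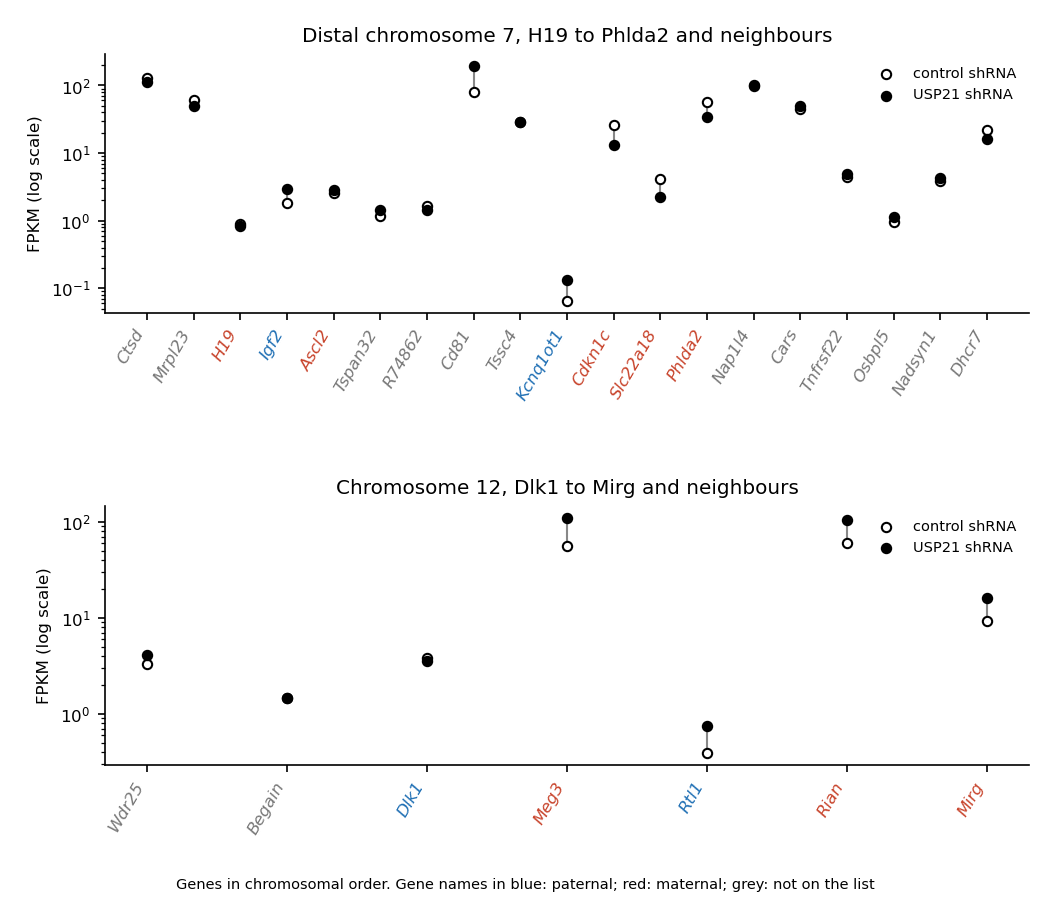
FPKM (y axis, log scale) of genes in chromosomal order along distal chromosome 7 (upper panel) and the Dlk1 and Meg3 locus (lower panel), with open circles for the control shRNA library and filled circles for the USP21 shRNA library. Listed genes are shown at any level and other genes within 500 kb only past the filter. Cdkn1c, Slc22a18 and Phlda2 have lower filled circles, and Meg3, Rian and Mirg higher ones.

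H19 and Igf2 lie next to the Kcnq1ot1 cluster and share enhancers, which H19 uses on the maternal and Igf2 on the paternal chromosome. H19, a long non-coding RNA, was at 0.897 and 0.832, estimated at about 65 and 52 fragments. Igf2, the fetal insulin-like growth factor, was at 1.83 and 2.91, a log2 ratio of 0.65, and shares 76.0% of its 31-base words with the annotated gene Gm49394. Igf2 was thus 2.04 times H19 in the control library and 3.50 times in the other. Igf2r (chromosome 17), the receptor that clears Igf2, was at 20.3 and 21.4, with a log2 ratio of 0.077 that turned to -0.17 after the length correction. Airn, the paternal RNA that runs against Igf2r, was at 0.0285 and 0.0356, the lowest of all members in both libraries. This was estimated at about 1 fragment in each, so its level was hardly measured. Of the 19 genes listed for the insulin-like growth factor pathway, 12 passed the filter and none was 2-fold higher or lower. Of all genes past the filter, 2.3% were 2-fold higher and 2.03% lower. The growth factor receptors Igf1r and Insr were at 4.35 and 4.69 and at 3.15 and 3.52, and Igfbp2, the most abundant binding protein, was at 242.5 and 296.1. Grb10 was at 109.7 and 97.5, with a log2 ratio of -0.17 that became 0.0048 after rescaling to equal sums.

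The Snrpn and Ndn locus, the mouse counterpart of the Prader-Willi region, is expressed from the paternal chromosome and stretches over central chromosome 7. Snrpn, a protein of the splicing machinery, was at 25.4 in control cells and 41.8 in knockdown cells. Snurf, which is read from the same messenger RNA as Snrpn, was at 25.5 and 41.9. These rows cannot be counted as separate evidence. Ndn, which encodes the MAGE protein necdin, lay on the other side with 13.3 and 8.67, a log2 ratio of -0.61. The proportion of Snrpn to Ndn was 1.91 in the control library and 4.82 in the other. Mkrn3, a makorin ubiquitin ligase, was at 1.32 and 2.68, estimated at about 107 and 185 fragments. Magel2 was at 0.107 and 0.174 and Peg12 at 0.682 and 0.565, or about 16 and 22 and about 57 and 40 fragments. Ube3a, the maternal gene of this region in neurons, was at 14.4 and 20.6, a log2 ratio of 0.51 or 0.24 after the length correction.

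Peg3 and Mest belong to the paternally expressed growth genes. Peg3, a large zinc finger protein, was at 4.08 and 7.78, a log2 ratio of 0.92, or 0.68 after the length correction. Its maternally expressed neighbour Zim1 was at 0.186 and 0.380, estimated at about 46 and 79 fragments, and the proportion of Peg3 to Zim1 was 21.9 and 20.5. Mest, an enzyme-like protein of the alpha/beta hydrolase fold, was at 29.4 and 44.1, a log2 ratio of 0.58. A part of Mest (33.5% of its 31-base words) lies against Copg2, which was at 29.2 and 29.9. Mest was 1.01 times Copg2 in the control library and 1.47 times in the other. Without strand, fragments of the shared stretch cannot be told apart, so these levels are not separate there.

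Among the genes that stand alone, Impact, a regulator of the amino acid sensor Gcn2, was at 50.5 and 70.4, and Zdbf2, which acts in the growth of newborn mice, was at 8.55 and 11.4. Their log2 ratios were 0.48 and 0.42, or 0.46 and 0.084 with the length trend subtracted. Gnas was at 179.4 and 178.7 and turned from -0.0062 to 0.17 after rescaling to equal sums, with transcripts of either allele summed in 1 row. Its antisense RNA Nespas was at 0.836 and 1.35. The remaining genes are retrocopies that lie in introns of other genes. Zrsr1, a splicing factor in an intron of Commd1, was at 10.8 and 12.4, and Commd1 at 121.8 and 89.7. Mcts2, in an intron of H13, was at 25.95 and 20.5, and H13 at 9.17 and 11.1. The parent gene of Mcts2, Mcts1 on the X chromosome, was at 27.6 and 16.7. Of the 31-base words of Mcts2, 6.24% were shared with other genes, all of them with the annotated gene Gm8328. A share with Mcts1 was not shown, and whether fragments were divided between Mcts2 and either gene was not tested. Nap1l5, in an intron of Herc3, was at 0.720 and 0.426, estimated at about 42 and 21 fragments, and Herc3 at 4.09 and 5.08.

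**Figure D4:**
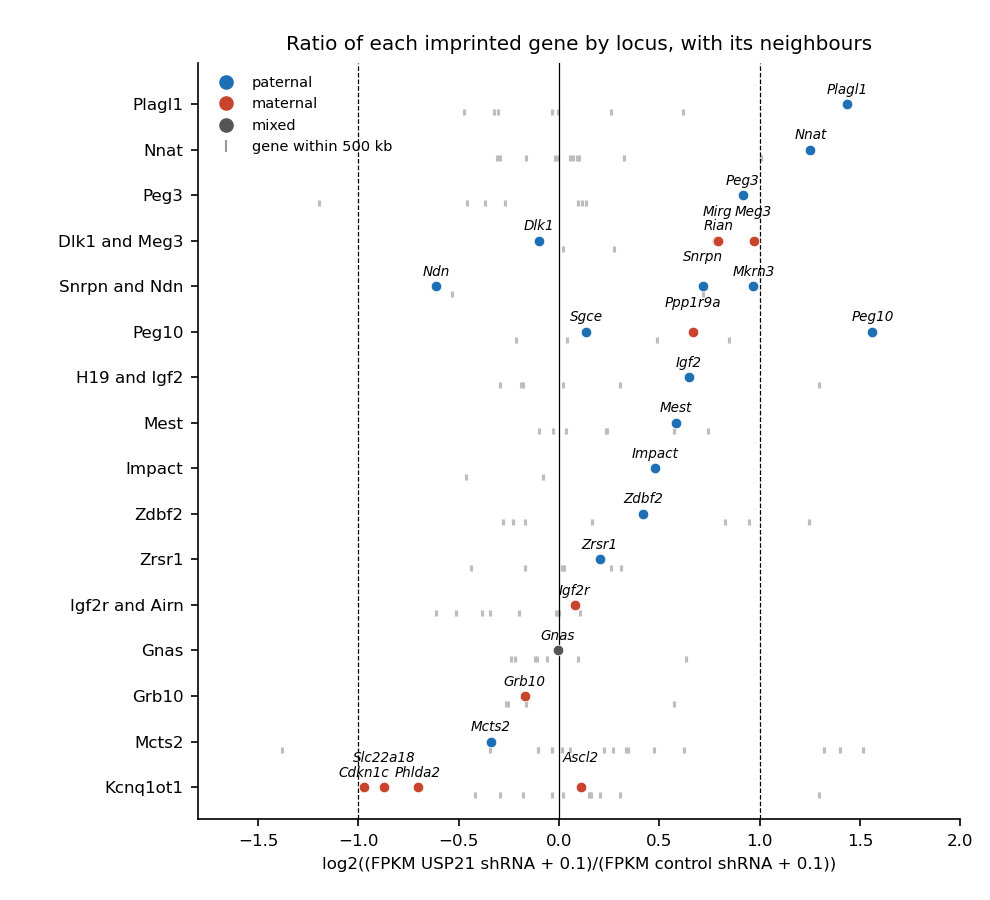
Log2 ratio of USP21 shRNA over control shRNA (x axis) for the 26 imprinted genes past the filter, 1 row per locus, ordered by the median of its members. Coloured points are imprinted genes by allele, grey ticks are other genes within 500 kb and past the filter, and dashed lines mark a 2-fold difference. Plagl1, Nnat and Peg10 lie to the right of the upper limit, and 3 genes of the Kcnq1ot1 locus lie left of their neighbours.

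Within 500 kb of the members, 306 other symbols were found by their GENCODE position and 107 of these passed the filter. Their median log2 ratio was 0.012, with 54 above 0 and 53 below 0. Of the 107, 6 were 2-fold higher and 2 were 2-fold lower, against 2.3% and 2.03% of all genes past the filter. These neighbours include 19 genes of the further imprinted list described next, Cd81 among them, and Snurf. Without these, 87 genes were left, with a median of -0.030, 37 above 0 and 50 below 0, 5 of them 2-fold higher and 2 lower. A further list of 46 genes that are imprinted in some tissue, many of them only in the placenta, had 43 in the tables and 25 past the filter. Here 21 lay above 0 and 4 below 0, with a median of 0.23, and Cd81 was the 1 gene past the 2-fold limit. Among all genes past the filter 50.4% lay above 0 and 2.3% were 2-fold higher. Sfmbt2, a Polycomb-related gene with a large microRNA cluster, was at 1.65 and 3.30 (log2 ratio 0.96, or 0.74 after the length correction). Gab1 was at 23.8 and 37.7 (0.66, or 0.58 after the length correction).

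Of 23 genes that set, keep or read imprints, 21 passed the filter. Among all genes past the filter 2.3% were 2-fold higher and 2.03% lower, and among the 21 only 1 was past these limits. This was Dnmt3l, the cofactor of the de novo DNA methyltransferases that is required for imprints in the germ line, with 62.1 in control cells and 201.0 in knockdown cells, a log2 ratio of 1.69. Dnmt3a, one of its partners, was at 19.4 and 36.5 (0.91, or 0.64 after the length correction), and Dnmt3b at 24.5 and 23.9 (-0.037). Of the genes that keep imprints, the maintenance methyltransferase Dnmt1 was at 76.5 and 80.9 and its recruiter Uhrf1 at 160.6 and 165.0. Zfp57 was at 231.4 and 196.0 (-0.24), while Zfp445, a second zinc finger protein that binds imprinting control regions, was at 16.7 and 22.4 (0.42, or 0.27 after the length correction). Their corepressor Trim28 was at 682.2 and 590.8 (-0.21). Dppa3, which protects imprints in the zygote, was at 0.865 and 0.855.

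Tet1, which oxidises methylated cytosine, was at 23.9 and 34.3 (0.52, or 0.16 after the length correction). Tet2 was at 24.98 and 22.01 (-0.18, or -0.43 after the length correction). Among enzymes that methylate histone H3 at lysine 9, Setdb1 was at 21.4 and 20.4, Ehmt1 at 15.1 and 17.0 and Ehmt2 at 35.1 and 29.4. The histone demethylases Kdm1a and Kdm1b were at 79.0 and 61.3 (-0.36) and at 5.87 and 5.69. Arid4a and Arid4b, chromatin proteins linked to the Prader-Willi region, were at 5.33 and 6.70 (0.32) and at 6.61 and 9.17 (0.47). Eed, a Polycomb subunit, was at 93.6 and 81.5, Smchd1, a chromatin silencer, at 14.9 and 15.5, and the zinc finger protein Zfp42 at 369.5 and 299.3 (-0.30). Ctcf, the insulator protein at the H19 control region, was at 37.3 and 36.5, and its germ line paralogue Ctcfl at 0.556 and 0.895. DNA methylation was not measured in these samples.

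**Figure D5:**
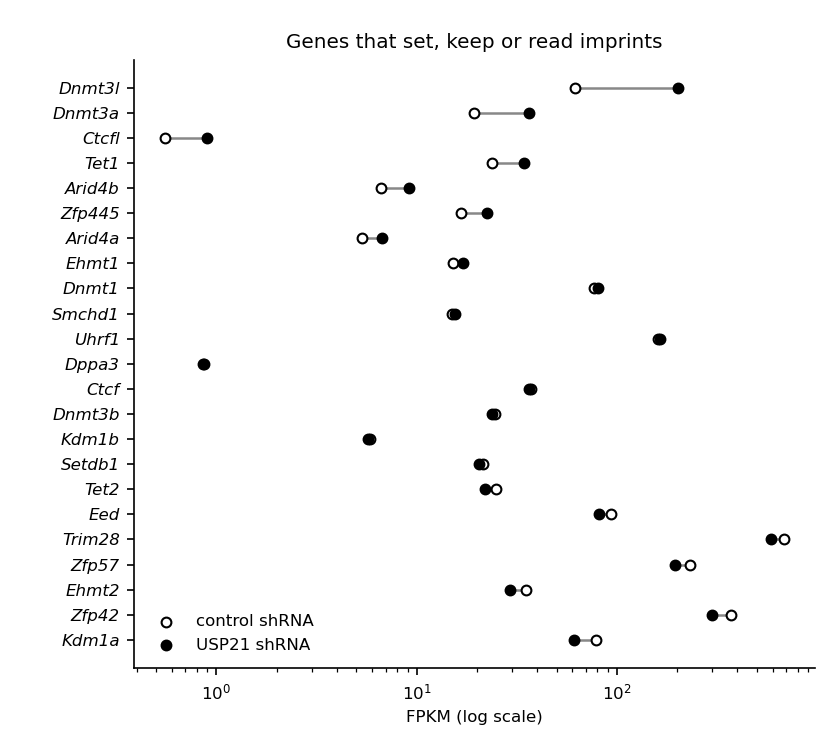
FPKM (x axis, log scale) of 23 genes that set, keep or read imprints, with open circles for the control shRNA library and filled circles for the USP21 shRNA library, ordered by log2 ratio. Dnmt3l (62.1 and 201) and Dnmt3a (19.4 and 36.5) have the widest gaps upwards among genes past the filter.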

How the data were processed

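RNA was sequenced from 1 E14 library per group, and the labels gave the groups. The authors deposited FPKM values, 1 per gene symbol and library. The submitters' processing notes name CASAVA 1.8.2, TopHat2 2.0.14, Cufflinks 2.2.1 and the build mm9, without their roles. The annotation, the handling of strand and any further scaling are not given in the sources used here, nor does the study's methods text cover these libraries.

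From these values log2((FPKM in knockdown cells + 0.1)/(FPKM in control cells + 0.1)) was computed for every symbol, and genes that reached 1 FPKM in either library were counted. With 1 library per group no test, interval or detection limit was computed, and n and SD are not given. The members, loci, alleles and gene lists were chosen by name with earlier results of these data known. The rule for named genes was to give every member, all imprint regulators, and other imprinted genes past the 2-fold limit; further genes were named after their values were seen. Transcript lengths (the longest transcript of a gene), positions and shared 31-base words came from GENCODE M21 (GRCm38), in which all 35 members and 95.4% of the genes past the filter were found; since the files hold no coordinates, positions are those of GRCm38. Numbers of fragments were estimated from the length and the step of 1 fragment seen in 217 and 180 low genes with 1 transcript of over 800 bases, and are rough. The length trend was a lowess fit (span 0.3), tested on simulated data. Alternatives were pseudocounts of 1 and 0.01, equal sums (TPM), the median set to 0, other filters and the length correction. Python 3.11.15, numpy 2.4.6, pandas 2.3.3, statsmodels 0.14.6 and matplotlib 3.10.9 were used.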

Additional observations from a re-analysis of the deposited data

How the results depend on the processing

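With 1 library per group, culture and library variation cannot be estimated, and the values describe these libraries only. No paired analysis was possible because each group has 1 library. The median log2 ratio of the imprinted genes, 0.45, was 0.62 after rescaling to equal sums of FPKM (where all genes had 0.18) and 0.32 after the length correction, and moved by at most 0.1 with other pseudocounts, filters, the median set to 0 or 1 value per locus. The count of 3 members 2-fold higher was 6 with equal sums, where 3.86% of all genes were. It was 2 to 4 with the other planned settings, where the share of all genes ran from 0.906% (pseudocount 1) to 2.52% (pseudocount 0.01). Peg10 and Nnat were always among those counted, and Plagl1 was left out by a filter at FPKM 5. No member was 2-fold lower in any planned setting, where 0.838% to 2.13% of all genes were. With a limit of 1.5-fold, added after seeing the data, 11 members were higher and 4 lower, against 7.77% and 6.46% of all genes. Of the 26 members past the filter, Grb10, Dlk1 and Gnas changed sign with equal sums and Igf2r with the length correction. Some members under an FPKM of 1 rest on few fragments, such as Airn with about 1 in each library and Asb4 with about 14 and 15.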

Other observations

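Some genes close to imprinted loci, outside all lists, were past the 2-fold limit in either direction. Near Mcts2, Nrsn2 was at an FPKM of 1.25 in control cells and 3.27 in knockdown cells, Ccm2l at 0.683 and 2.14, and Cox4i2, a subunit of cytochrome c oxidase, at 2.26 and 0.805. Near Nnat, Vstm2l was at 0.572 and 1.25. Near Peg3, Aurkc, an Aurora kinase of the germ line, was at 2.26 and 0.928. Near Zdbf2, Ino80dos was at 0.757 and 1.93. All genes named here were below an FPKM of 5 in both libraries. These genes were named after their values were seen.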
